A study of Mus musculus with 6 samples.

Results

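The respiratory chain of the inner mitochondrial membrane passes electrons from NADH and succinate to oxygen. Complex I (NADH dehydrogenase), complex II (succinate dehydrogenase), complex III (the cytochrome bc1 complex) and complex IV (cytochrome c oxidase) carry the electrons, and complexes I, III and IV pump protons whose return through complex V (ATP synthase) drives ATP synthesis. Most subunits are encoded in the nucleus, and some of complex IV have isoforms that are used in muscle, brown fat or testis rather than in most tissues. Keratinocytes of the basal epidermis contain mitochondria that are lost as the cells cornify. The genes described here are the nuclear genes of these subunits, taken as every gene on the array whose symbol begins with Ndufa, Ndufb, Ndufc, Ndufs or Ndufv and a digit, with Uqcr, with Cox4 to Cox8 or with Atp5, together with Sdha, Sdhb, Sdhc and Sdhd. The symbol came from the RefSeq accession of the probe. This gave 84 of the 21368 genes named on the array, of which 82 were tested, among 14135 genes tested in all.

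Gene expression was measured in total epidermis of mouse tail skin, separated from the dermis with EDTA, from wild type C57BL/6 mice. The young group held 3 samples from mice of 8 weeks. The aged group held 3 samples, replicate 1 from a mouse of 22 months and replicates 2 and 3 from mice of 25 months. RNA of every sample went onto a separate 1-colour Agilent array, and the comparison addressed age differences in transcript level. The labels give no sex and do not say that each sample was a separate animal, so p-values reflect only how far these samples spread, which may be technical. Total epidermis is a mixture of cell types, so fewer cells of a type and less RNA per cell cannot be told apart.

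A value is the log2 of the processed signal minus the log2 of the 75th percentile of that array, so that 0 is the 75th percentile of an array, and a difference is aged minus young on this log2 scale. The 75th percentile lay between 230.2 and 300.3 signal units, and per array 50.02% to 54.38% of 55681 probes passed the scanner software's test for a signal well above background. With 3 arrays per group, precision was limited by their number. The keratinocyte genes Krt5, Krt14, Krt10, Krt1 and Lor were well above background on all 6 arrays. Some arrays stood apart from others of their group. Ddx3y and Eif2s3y, which lie on the Y chromosome, were well above background on replicate 1 of both groups and on no other array. Eif2s3y was at 3.31 on young replicate 1 and 3.43 on aged replicate 1, and at -6.88 to -6.62 on the others. By these genes replicate 1 of each group held male tissue, and the other samples showed no male signal. The summed signal of 3 erythroid genes was 1.58 on young replicate 1 and 1.00 on aged replicate 1. On the other arrays it was 4.46 to 5.99. The summed signal of 11 hair shaft and inner root sheath genes was 10.17 to 10.83 log2 units on the young arrays and 9.88, 7.49 and 4.56 on aged replicates 1, 2 and 3. The summed signal of 8 Langerhans cell genes was 3.26 to 3.69 on the young arrays and 2.10, 2.97 and 3.61 on the aged arrays. On aged replicate 1 Epcam had the highest signal of that list, 1.37, and was the only gene of it within its young range. Cd207, H2-Aa and Itgax were at -6.96, -6.58 and -6.90 on that array, and at -3.20 to -1.39 on the young arrays. The part of these shifts in the results below was not tested.

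Promoters of these genes are known to carry sites for the transcription factors NRF1, GABP (of the ETS family), YY1 and the oestrogen-related receptors, which are general regulators of mitochondrial genes. RefSeq promoters of the GRCm38.p6 assembly, each of 250 bases before and 50 after a transcription start, were matched by symbol for 68 of the 84 genes. Both strands were searched for GCGCA followed by any base and GCGC (NRF1), CCGGAAGT (ETS), AANATGGCG (YY1) and TNAAGGTCA (oestrogen-related receptors), where N is any base. The letters of no motif contain those of another. The NRF1 letters were found in 18 of 73 promoters of these genes, or 24.7%, against 4.6% of all 32851 promoters. The YY1 letters were in 13.7% against 2.38%, the ETS letters in 6.85% against 3.89% and the receptor letters in 4.11% against 1.28%. At least 1 motif lay in the promoters of 30 of the 68 genes, 14 of 31 in complex I, 2 of 3 in complex II, 3 of 5 in complex III, 2 of 14 in complex IV and 9 of 15 in complex V. A match describes these letters and does not show that a factor binds there. The following 4 stretches, of 120 bases each and ending at the transcription start, are shown because their genes lie among the members with the smallest p-values in complexes I, II and V and carry the most frequent motif. Capitals mark the NRF1 letters.
Ndufa5, chr6:24527691-24527810, minus strand: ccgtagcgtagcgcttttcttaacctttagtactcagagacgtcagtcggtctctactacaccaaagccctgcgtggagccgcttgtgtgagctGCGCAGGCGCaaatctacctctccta
Sdhd, chr9:50603850-50603969, minus strand: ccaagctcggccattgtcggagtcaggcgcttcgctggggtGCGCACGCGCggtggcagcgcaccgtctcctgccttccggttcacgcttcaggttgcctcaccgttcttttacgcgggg
Sdha, chr13:74350241-74350360, minus strand: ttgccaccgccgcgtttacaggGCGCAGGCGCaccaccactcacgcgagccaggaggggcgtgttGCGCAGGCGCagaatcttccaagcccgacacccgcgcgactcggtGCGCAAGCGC
Atp5g2, chr15:102671048-102671167, minus strand: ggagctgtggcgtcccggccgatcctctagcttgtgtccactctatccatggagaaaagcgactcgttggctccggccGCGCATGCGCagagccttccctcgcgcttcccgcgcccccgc
The Sdha stretch holds the NRF1 letters at 3 places and each of the others at 1. The 17 tested genes with the NRF1 letters in a promoter had a median difference between aged and young epidermis of 0.18 log2 units, and the 50 tested genes with a promoter but without these letters had a median of 0.18.

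Across the 5 complexes, most subunit genes had slightly more transcript in aged than in young epidermis, and no single gene passed the threshold. Of the 82 tested genes 76 were higher in aged epidermis, or 92.7%, where 63.6% of all tested genes were. Scaling the arrays to the 75th percentile of the probes detected on all of them gave 67 of 82, with 51.0% of all genes, and quantile normalization gave 68, with 59.1% of all genes. The median difference was 0.18 log2 units, with quartiles of 0.11 and 0.26, beside a median of 0.09 and quartiles of -0.11 and 0.26 for all tested genes. The median was 0.18 in complex I, 0.25 in complex II, 0.17 in complex III, 0.16 in complex IV and 0.16 in complex V. In the same order these medians were 0.10, 0.16, 0.09, 0.07 and 0.07 when scaled to the probes detected on all arrays, where the all-gene median was 0.01, and 0.11, 0.16, 0.10, 0.08 and 0.08 under quantile normalization, where it was 0.06. By limma with Benjamini-Hochberg adjustment over all 25066 features, 0 members passed an adjusted p of 0.05 in either direction, where 0.0778% of all tested genes did, 0.0424% of them as higher. At an unadjusted p under 0.05, 13 members were higher, or 15.9%, and 0 were lower. The background at that p was 11.4% of all tested genes higher and 6.3% lower, so the share of higher members was near it. With the replicate number as a block the counts were 8 higher and 1 lower, where 1631 and 1079 of the 14135 tested genes were. Young replicates 1 and 2 lay in slide row 1, and young replicate 3 and all 3 aged arrays in slide row 2. Age and slide row therefore cannot be fully told apart. A block for slide row rests on young replicate 3 against the 3 aged arrays. The members' median difference with that block was 0.25, beside 0.11 for all tested genes. Fits with array weights called members, 18 higher and 2 lower where 21.9% of all tested genes were called higher and 12.6% lower, and 6 higher and 1 lower by the gene-by-gene method, beside 9.69% and 7.12%. The first weights gave aged replicate 2 a weight of 11.8, where the next highest array had 1.88. The gene-by-gene weights gave it 3.72, where the next highest array had 2.06.

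**Figure D1:**
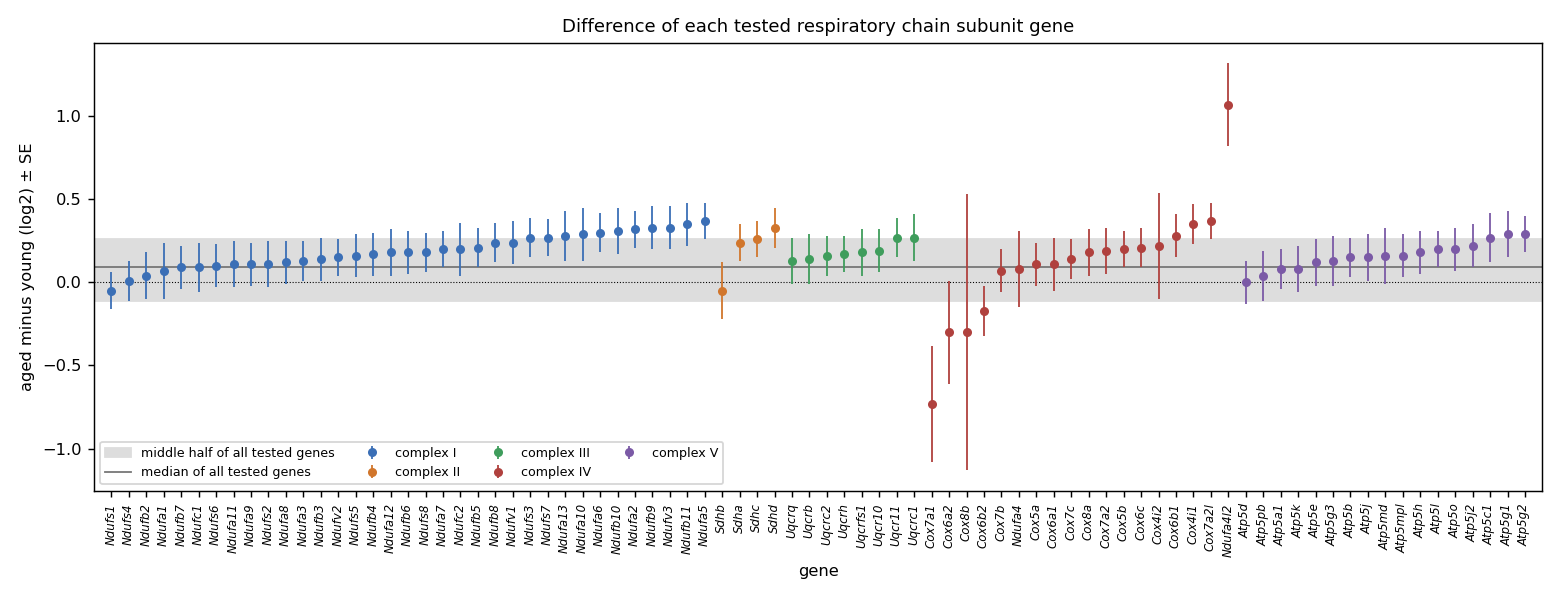
Difference between aged and young epidermis (log2, aged minus young, with the limma SE, 3 arrays per group) for each of the 82 tested genes, ordered within complexes I to V. The grey line and band are the median of 0.09 and the interquartile range of all tested genes; Ndufa4l2 at 1.07 and Cox7a1 at -0.73 lie farthest from them.

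Groups that did not overlap, with all 3 aged values above all 3 young values, were seen for 22 of the 82 genes, or 26.8%, against a background of 19.5% of all tested genes. In the opposite direction there were 0 members against 7.48% of all tested genes, and 1 member under quantile normalization. Of the 22, 10 belonged to complex I, 3 to complex II, 2 to complex III, 5 to complex IV and 2 to complex V.

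Young replicate 1, the only young array on which Ddx3y and Eif2s3y were detected, stood above the other young arrays. It had the highest of the 3 young values for 77 of the 82 genes, or 93.9%, while it was the highest young array for 46.5% of all tested genes. Among the aged arrays, replicate 3 was highest for 64 members and replicate 2 lowest for 53. Taken over the members, the median deviation from the mean of the young arrays was 0.14 on the log2 scale for young replicate 1, -0.07 and -0.06 for young replicates 2 and 3, and 0.18, 0.10 and 0.29 for aged replicates 1, 2 and 3. Aged replicate 2 therefore lay below young replicate 1 and above the other young arrays. The same medians over all tested genes were 0.03, -0.02 and -0.02 on the young arrays and 0.05, 0.08 and 0.17 on the aged arrays. Without young replicate 1 the groups did not overlap, higher in aged, for 65 members, and the median difference was 0.26, beside 32.9% of all genes and an all-gene median of 0.11. Without young replicate 2 or without young replicate 3 the median difference was 0.13, beside all-gene medians of 0.09 and 0.08.

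**Figure D2:**
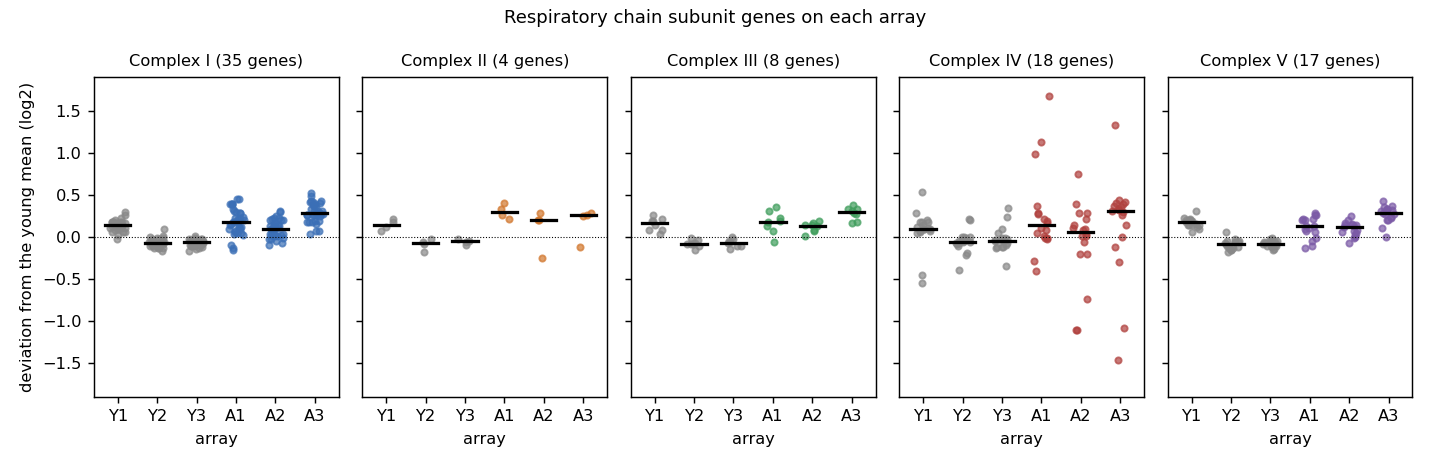
Each point is 1 gene on 1 array, plotted as its deviation (log2) from the mean of the 3 young arrays; Y1 to Y3 are the young and A1 to A3 the aged replicates, and black bars are medians. The median of Y1 lies above those of Y2 and Y3 in every complex, and the largest deviations on the aged arrays are in complex IV.

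Complex I accepts electrons from NADH and holds the largest number of subunits. Of its 35 tested genes 34 were higher in aged epidermis, with differences from -0.05 to 0.37, and 31 were higher under quantile normalization. The 7 core subunits, which bind the flavin and the iron-sulphur clusters, had a median difference of 0.18 and 6 of 7 were higher. The 12 accessory subunits of the Ndufa series had a median of 0.19 and the 10 subunits of the Ndufb series, which lie in the distal part of the membrane arm, a median of 0.20. The 6 other accessory subunits had a median of 0.13. No difference between these groups was tested.

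Ndufa5, an accessory subunit of the peripheral arm, had the smallest p in complex I. Its signals were 5.63, 5.42 and 5.44 on young replicates 1, 2 and 3 and 5.89, 5.81 and 5.91 on the aged replicates. All aged values were above all young values, and the difference was 0.37 ± 0.11 (SE, 3 arrays in each group, 1.29-fold, limma adjusted p = 0.202). A second probe of the gene gave 0.34. Ndufa2, another accessory subunit, had signals of 5.31, 5.08 and 5.16 in young and 5.57, 5.48 and 5.47 in aged epidermis. These groups did not overlap either, and the difference was 0.32 ± 0.11 (limma adjusted p = 0.232).

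In the distal membrane arm, Ndufb11 had signals of 5.80, 5.65 and 5.56 in young and 6.12, 5.87 and 6.07 in aged epidermis. The lowest aged value, that of replicate 2, was just above young replicate 1, and the difference was 0.35 ± 0.13 (limma adjusted p = 0.242). Ndufb9, of the same arm, differed by 0.33 ± 0.13 and its groups did not overlap (limma adjusted p = 0.248). Ndufa6, an accessory subunit, differed by 0.30 ± 0.12 (limma adjusted p = 0.260).

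Among the core subunits Ndufs7, which carries the last iron-sulphur cluster before ubiquinone, had signals of 5.19, 5.02 and 5.04 in young and 5.37, 5.31 and 5.39 in aged epidermis. The groups did not overlap and the difference was 0.27 ± 0.11 (limma adjusted p = 0.260). Ndufs1, the largest core subunit, was the only tested complex I gene below 0, with signals of 3.91, 3.85 and 3.81 in young and 3.72, 3.81 and 3.89 in aged epidermis. These ranges overlapped almost fully, the difference was -0.05 ± 0.11 (limma adjusted p = 0.845), and it was 0.02 without replicate 1 of both groups. Ndufs4, an accessory subunit, differed by 0.01 ± 0.12.

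Complex II oxidises succinate in the citric acid cycle and is the only complex here whose subunits are all encoded in the nucleus. Its flavoprotein Sdha had signals of 3.94, 3.77 and 3.77 in young and 4.09, 4.03 and 4.09 in aged epidermis. All aged arrays were above all young arrays, and the difference was 0.24 ± 0.11 (limma adjusted p = 0.299). The membrane anchor Sdhc had signals of 3.09, 3.00 and 2.97 in young and 3.35, 3.22 and 3.27 in aged epidermis. Its groups did not overlap and the difference was 0.26 ± 0.11 (limma adjusted p = 0.271). The second anchor, Sdhd, had signals of 3.53, 3.27 and 3.25 in young and 3.75, 3.64 and 3.63 in aged epidermis. It again showed no overlap, with a difference of 0.33 ± 0.12 (limma adjusted p = 0.250).

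The iron-sulphur subunit Sdhb was the exception in complex II, with signals of 5.50, 5.11 and 5.26 in young and 5.50, 5.04 and 5.17 in aged epidermis. The arrays of each number lay close together in both groups, and the difference was -0.05 ± 0.17 (limma adjusted p = 0.894). A second, dimmer probe of Sdhb differed by 0.27, and the mean of both probes by 0.11, so the direction for Sdhb depends on the probe.

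Complex III passes electrons from ubiquinol to cytochrome c. All 8 tested genes were higher in aged epidermis, also under quantile normalization, and none had an unadjusted p under 0.05. Uqcr11, a small subunit, had signals of 5.83, 5.66 and 5.74 in young and 6.10, 5.87 and 6.08 in aged epidermis. The groups did not overlap, with a difference of 0.27 ± 0.12 (limma adjusted p = 0.303). Uqcrh, the hinge protein, had signals of 6.25, 6.21 and 6.20 in young and 6.29, 6.36 and 6.53 in aged epidermis. Its young values lay close together, all aged values were above them, and the difference was 0.17 ± 0.11 (limma adjusted p = 0.445). The core protein gene Uqcrc1 differed by 0.27 ± 0.14 and Uqcrfs1, the Rieske iron-sulphur protein, by 0.18 ± 0.14, and their groups overlapped.

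Complex IV reduces oxygen to water, and its genes differed most among themselves. Ndufa4 was named as a complex I subunit but is now placed in complex IV, and is counted there with its paralogue Ndufa4l2. Of the 18 tested genes 14 were higher in aged epidermis, or 12 under quantile normalization, with differences from -0.73 to 1.07. The 10 subunits and isoforms found in most tissues had a median difference of 0.18 and all were higher, with exceptions in some alternatives. Cox7b was at -0.01 when scaled to the probes detected on all arrays and -0.00 under quantile normalization, and Cox6a1 was at -0.03 and -0.00 with the 2 kinds of array weights and -0.05 without aged replicate 3. Of the 5 tested isoforms of muscle, brown fat, lung or testis, 4 were lower, with a median of -0.30. That median was -0.51 without aged replicate 1 and -0.78 without replicate 1 of both groups, with all 5 lower, and -0.08 without young replicate 1, -0.14 without young replicate 3 and -0.09 without aged replicate 2. Under the normexp background correction it was -0.05 and 3 of 5 were lower, and the sign of Cox8b also turned in other alternatives.

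Ndufa4l2, a paralogue of Ndufa4 known to be induced by hypoxia, had the largest difference of all members. Its signals were 3.68, 4.34 and 4.37 on young replicates 1, 2 and 3 and 5.26, 4.88 and 5.46 on the aged replicates. All aged values were at least as high as 4.88 and all young values at most 4.37. The difference was 1.07 ± 0.25 (SE, 3 arrays in each group, 2.09-fold, limma adjusted p = 0.145), and 1.05% of all tested genes had a difference as high or higher. It was 0.84 without young replicate 1, the lowest array, and 0.81 without replicate 1 of both groups.

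Ndufa4 itself had signals of 5.22, 5.10 and 4.98 in young and 4.69, 5.38 and 5.46 in aged epidermis. Aged replicate 1 was the lowest of the 6 arrays and aged replicates 2 and 3 the highest. The difference was 0.08 ± 0.23 (limma adjusted p = 0.886), and its sign turned under quantile normalization (-0.02) and when scaled to the probes detected on all arrays (-0.01). It was 0.32 without aged replicate 1 and 0.38 without replicate 1 of both groups, and -0.03 and -0.06 without aged replicates 2 and 3.

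Cox7a2l, which encodes a Cox7a-related protein, had signals of 6.67, 6.57 and 6.48 in young and 6.86, 6.97 and 7.01 in aged epidermis. The groups were well apart, and the difference was 0.37 ± 0.11 (1.30-fold, limma adjusted p = 0.199). Its 2 further probes gave 0.31 and 0.36. Among members higher in aged epidermis only Ndufa4l2 differed more, and Ndufa5 differed by nearly as much.

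Cox4i1, the common isoform of the largest nuclear-encoded subunit, had signals of 6.53, 6.27 and 6.35 in young and 6.75, 6.67 and 6.77 in aged epidermis. No aged value lay below a young value, and the difference was 0.35 ± 0.12 (1.27-fold, limma adjusted p = 0.219). Its isoform Cox4i2, known from lung and from responses to low oxygen, had signals of -1.14, -1.28 and -1.22 in young and -0.23, -1.41 and -1.33 in aged epidermis. Aged replicate 1 alone lay above the young arrays, and the other aged arrays lay below them. The difference was 0.22 ± 0.32 (limma adjusted p = 0.743) and turned to -0.16 without aged replicate 1.

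In the Cox6 groups the common isoform was higher and the tissue-restricted isoform lower, and none passed the threshold. Cox6a1 differed by 0.11 ± 0.16, and by -0.05 without aged replicate 3, whereas Cox6a2, the isoform of heart and skeletal muscle, differed by -0.30 ± 0.31. The difference of Cox6a2 was -0.78 without replicate 1 of both groups, -0.58 without young replicate 1, -0.51 without aged replicate 1, -0.09 without aged replicate 2, -0.13 without young replicate 3 and -0.05 with normexp, so its size rests on single arrays. Cox6b1 differed by 0.28 ± 0.13, without overlap of the groups, and the testis isoform Cox6b2 by -0.17 ± 0.15. Cox6c, which has no other isoform, differed by 0.21 ± 0.12. Cox7a2 and Cox8a, the common isoforms of their groups, differed by 0.19 ± 0.14 and 0.18 ± 0.14. The testis isoform genes Cox7b2 and Cox8c were below the detection test on all 6 arrays and were not tested. All tested members were well above background on all 6 arrays, so no member lay just inside or just outside the minimum of 3 arrays.

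Cox7a1, the isoform of heart, skeletal muscle and brown fat, had signals of -0.39, -1.07 and -0.58 in young and -0.69, -1.79 and -1.76 in aged epidermis. Aged replicate 1 lay within the young range, and aged replicates 2 and 3 below it. The difference was -0.73 ± 0.35 (limma adjusted p = 0.321), and -1.10 ± 0.22 without aged replicate 1 (limma adjusted p = 0.0527). With normexp it was -0.42. Without aged replicate 1, 1.96% of all tested genes passed as higher and 3.76% as lower, and 0 members passed.

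Cox8b, an isoform of muscle and brown fat, had signals of -2.09, -2.81 and -2.96 in young and -0.94, -3.73 and -4.08 in aged epidermis. Aged replicate 1 was the highest and aged replicates 2 and 3 the lowest of the 6 arrays. Its difference of -0.30 ± 0.83 (limma adjusted p = 0.876) was -1.29 without aged replicate 1 and turned to 0.28 without aged replicate 3, 0.11 without aged replicate 2, 0.06 with normexp and 0.04 with a block for slide row. The highest array and the lowest array of Cox8b were also those of Cidea, a lipid droplet gene of the adipocyte list. Cidea had signals of 5.11, 4.52 and 4.24 in young and 6.32, 5.09 and 3.79 in aged epidermis. Among the other adipocyte genes detected on all 6 arrays, Plin4 was also highest on aged replicate 1 and lowest on aged replicate 3. Ucp1 went the other way, lowest on aged replicate 1 at -3.83 and highest on aged replicate 3 at -0.03. Fabp4 was at 2.22 to 2.67 in young and 1.12, -0.67 and -2.37 in aged epidermis. The summed signal of the 8 genes of the adipocyte list was 4.87 to 5.74 on the young arrays and 6.59, 5.30 and 4.09 on the aged arrays. Signals were summed before the log2 was taken, and Cidea had the highest signal of the list on every array, so the sum mostly repeats Cidea. The defining genes Adipoq and Lep of the list were detected on 0 of 6 arrays. Of 11 skeletal muscle genes 6 were detected on 0 of 6 arrays, among them Ckm, Myh1, Myh2 and Myh4. The summed signal of the muscle list was 1.08 to 1.29 in young and 1.39 to 1.52 in aged epidermis. Tnni2 had the highest signal of that list on every array and differed by 0.36. The other tested muscle genes Acta1, Mylpf and Tnnc2 differed by -0.30, -0.06 and 0.10. The part of either list in the values of Cox7a1, Cox6a2 and Cox8b was not tested.

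**Figure D3:**
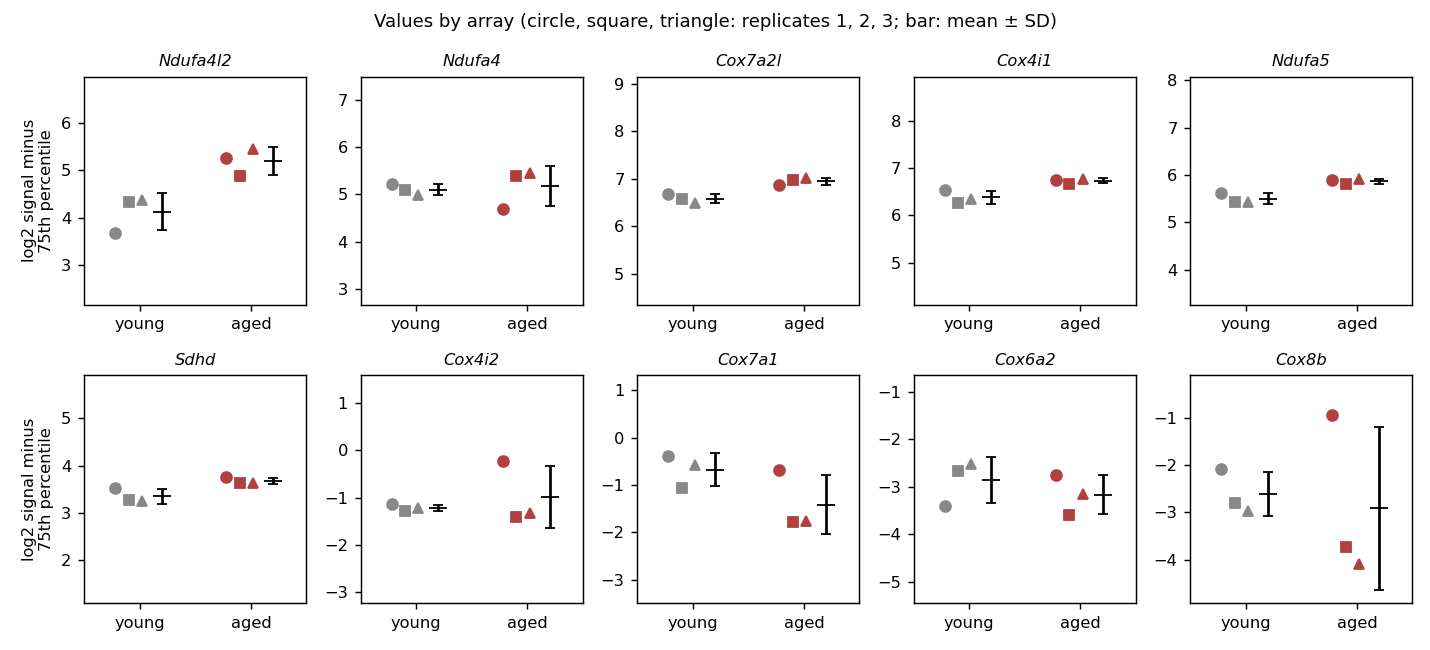
Signal of 10 genes on each array (log2 signal minus the 75th percentile of the array), with young arrays in grey, aged arrays in red and the mean ± SD of 3 arrays beside them; every panel spans the same number of log2 units. The aged values of Ndufa4l2, Cox7a2l, Cox4i1, Ndufa5 and Sdhd lie above all young values, while aged replicate 1 (circle) stands apart from the other aged arrays for Ndufa4, Cox4i2, Cox7a1 and Cox8b.

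Complex V makes ATP in the F1 head, and a ring of c subunits in the membrane turns its central stalk. All 17 tested genes had differences of 0.00 or above, up to 0.29, and 14 were higher under quantile normalization. The median was 0.12 for the 5 genes of the head and central stalk, 0.29 for the 3 genes of the c ring, 0.17 for the 4 genes of the peripheral stalk and 0.16 for the 5 small membrane subunits. The catalytic subunit gene Atp5b differed by 0.15 ± 0.12 and Atp5a1, the other large subunit of the head, by 0.08 ± 0.12.

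The 3 genes Atp5g1, Atp5g2 and Atp5g3 encode the same mature c subunit with different import sequences. Atp5g2 had signals of 7.26, 7.10 and 7.07 in young and 7.40, 7.39 and 7.50 in aged epidermis. All aged values were above all young values, and the difference was 0.29 ± 0.11 (1.22-fold, limma adjusted p = 0.260). Atp5g1 had signals of 5.64, 5.27 and 5.37 in young and 5.71, 5.63 and 5.80 in aged epidermis. Aged replicate 2 lay just below young replicate 1, and the difference was 0.29 ± 0.14 (limma adjusted p = 0.327). Atp5g3 differed by 0.13 ± 0.15, with overlap. Of the remaining genes with small p, Atp5l, a small membrane subunit, differed by 0.20 ± 0.11 without overlap, Atp5c1, the central stalk, by 0.27 ± 0.15 and Atp5j2 by 0.22 ± 0.13, with limma adjusted p between 0.377 and 0.393.

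Further probes gave similar values. Of the 113 probes of the 84 genes 111 passed the filter, and 22 genes had a further passing probe. Of these 29 further probes 27 had the sign of the probe used, and the median gap between them was 0.04 log2 units. The largest gap was that of Sdhb, and the other change of sign was a dim probe of Cox7c at -0.10.

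Among other genes of the pathway 0 passed the threshold by limma. Most differences were small and positive, while that of Sqor was large and negative. Ppargc1a passed the filter on detection only through the young arrays. Of 41 tested assembly factor genes 38 were higher in aged epidermis, or 36 under quantile normalization, with a median difference of 0.22. At an unadjusted p under 0.05, 10 of them, or 24.4%, were higher and 0 lower, beside 11.4% of all tested genes higher. The groups did not overlap, higher in aged, for 15, or 36.6%, beside 19.5% of all tested genes. Sco2, which delivers copper to complex IV, had signals of 1.30, 1.28 and 1.11 in young and 1.51, 1.81 and 1.74 in aged epidermis. Its groups did not overlap, and the difference was 0.45 ± 0.13 (limma adjusted p = 0.190). Coa5, another complex IV assembly factor, differed by 0.52 ± 0.16 and Ndufaf2, of complex I, by 0.43 ± 0.13, both without overlap (limma adjusted p = 0.202 and 0.204). The lower members were Atpaf2 at -0.11 ± 0.16, Ndufaf5 at -0.03 ± 0.14 and Cox11 at -0.01 ± 0.16.

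All 21 tested genes of mitochondrial carriers, channels and protein import were higher in aged epidermis, or 20 under quantile normalization, with a median of 0.19. Of these 5, or 23.8%, had an unadjusted p under 0.05, beside 11.4% of all tested genes. Vdac1, the outer membrane channel, differed by 0.32 ± 0.11, the chaperone gene Hspa9 by 0.32 ± 0.11 and the prohibitin gene Phb2 by 0.36 ± 0.13 (limma adjusted p = 0.213, 0.221 and 0.235). The 18 tested citric acid cycle genes were all higher with a median of 0.17, but 11 of 18 under quantile normalization and 10 of 18 when scaled to the probes detected on all arrays. Suclg2, a subunit of succinyl-CoA ligase, differed by 0.46 ± 0.17, Dlat, of pyruvate dehydrogenase, by 0.28 ± 0.12 and Idh2 by 0.38 ± 0.16.

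Among 10 other subunits and electron carriers 8 were higher, or 6 under quantile normalization, and the smallest p was on the lower side. Sqor, which passes electrons from sulphide to ubiquinone, had signals of 0.65, 0.03 and 0.21 in young and -1.49, -1.21 and -0.97 in aged epidermis. The groups were far apart, and the difference was -1.52 ± 0.21 (limma adjusted p = 0.0939). Gpd2, Dhodh and Etfdh, which also pass electrons to ubiquinone, differed by 0.39 ± 0.19, 0.26 ± 0.13 and 0.21 ± 0.12, and the acyl carrier subunit Ndufab1 by -0.19 ± 0.33.

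Of 20 tested regulators of mitochondrial gene expression 17 were higher, with a median of 0.12. Under quantile normalization 13 were higher with a median of 0.07, and scaled to the probes detected on all arrays 12 were higher with a median of 0.03. Tfam, which packages and transcribes mitochondrial DNA, had signals of 1.08, 0.90 and 0.83 in young and 1.29, 1.21 and 1.36 in aged epidermis. Its groups did not overlap, and the difference was 0.35 ± 0.12 (limma adjusted p = 0.221). The transcription factor genes Nrf1, Gabpa, Esrra and Yy1 differed by 0.04 ± 0.14, 0.14 ± 0.12, 0.14 ± 0.19 and 0.27 ± 0.12, and Tfb1m by 0.27 ± 0.15. Ppargc1a, a coactivator of mitochondrial biogenesis, was well above background on 3 of 3 young and 0 of 3 aged arrays. It passed the filter on detection only through the young arrays, so its lower direction in aged epidermis was not tested apart from that filter. Its young signals of -4.42, -4.07 and -4.50 lay near the lowest signals well above background on those arrays, at -4.97, -4.65 and -4.68. Polg and Mterf1a were at -0.05 ± 0.22 and -0.14 ± 0.17.

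**Figure D4:**
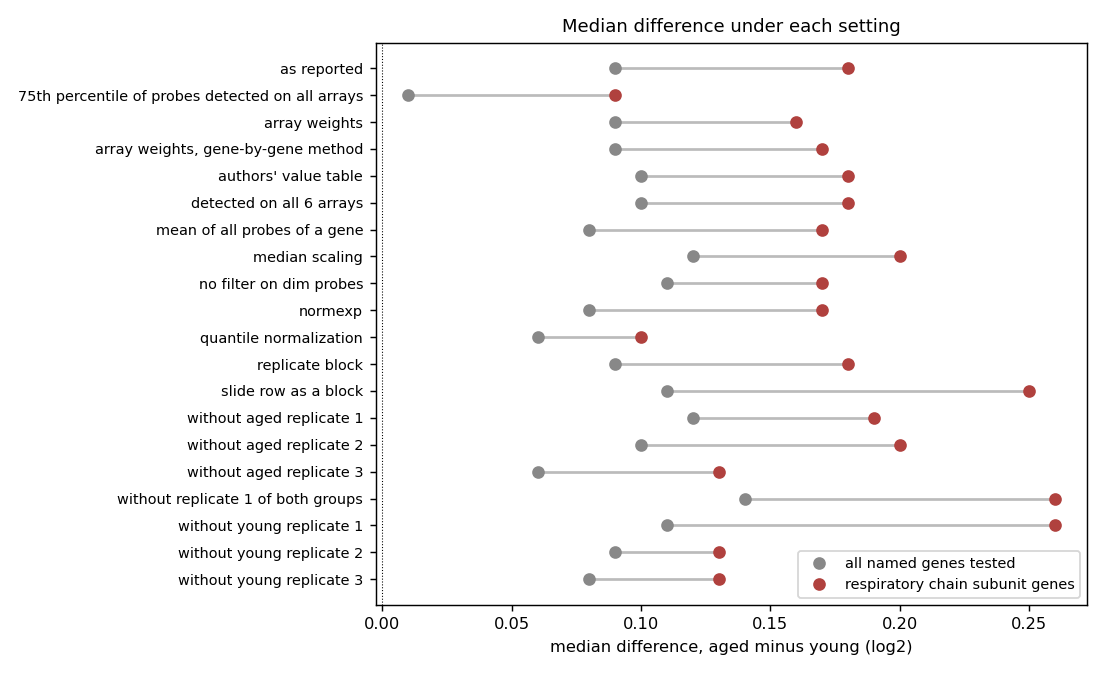
Median difference between aged and young epidermis (log2) of the respiratory chain subunit genes (red) and of all named genes tested (grey) for the values as reported and for each alternative. The members' median lies to the right of the all-gene median in each, between 0.09 and 0.26 for the members.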

How the data were processed

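Per the labels' protocols, RNA was converted to amplified cDNA and given Cy3 label before hybridisation. Per the file headers, arrays lay on 1 slide and were read by Agilent Feature Extraction 11.5.1.1. The deposited processed signal is an intensity from which that software had removed background. The authors' deposited log2 table equalled these values, scaled to the 75th percentile and centred per probe, with correlations of at least 0.9999. Its scale, centring and direction were inferred from that match. Its column medians were -0.013, -0.021 and -0.021 for young and -0.009, 0.016 and 0.071 for aged arrays.

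Control spots were dropped, as were outlier spots (116 to 170 an array), and repeated spots averaged. No spot was saturated. RefSeq accessions named 28331 of 55681 probes through a GRCm38.p6 table. The brightest probe per gene among those detected (well above background) on 3 or more of 6 arrays was tested, giving 14135 genes, besides 10931 unnamed probes. Log2 values were fitted without covariates by limma 3.58.1 in R 4.3.3, two-sided, after the fit was tested on simulated data. For 1 gene an exact permutation test of 3 against 3 cannot go below 0.1, so none was run.

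The rule for named genes took, per complex, those of smallest p in each direction, all of complex II and the isoform groups, and from each pathway list up to 3 in each direction, besides 5 regulators. Ndufs4, Uqcrfs1, Atp5a1 and Atp5b were added for their roles after their values were seen. Members and lists were chosen with earlier results of these data known. The replicate 1 samples of both groups shared the Y chromosome and erythroid signals given above. By the labels, same-numbered samples share only the number in their titles. Over all features, correlations between their deviations from group means were 0.414, 0.259 and 0.102, each over 0.1. Across numbers, young replicate 2 with aged replicate 3 gave 0.286 and young replicate 3 with aged replicate 2 gave 0.095, and the rest were negative. For replicates 2 and 3 these values therefore do not single out the same-numbered pairs. All same-numbered samples were treated as paired, with the replicate number as a block in an alternative. Normexp used the median spot signal and an offset of 50. The other alternatives changed scaling, filter, probe choice, array weights, slide row and the arrays included.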

Additional observations from a re-analysis of the deposited data

How the results depend on the processing

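The members' median difference was above 0 in each alternative run, from 0.09 to 0.26. Members passed the adjusted threshold only with array weights, 18 higher and 2 lower (34 and 3 at an unadjusted p under 0.05, beside 30.8% and 16.6% of all genes), and with gene-by-gene weights, chosen after seeing the data, 6 higher and 1 lower (22 and 2 unadjusted, beside 23.8% and 13.1%). The first weights stopped before reaching their tolerance. The cause was not tested. The 13 higher members at an unadjusted p under 0.05, beside 11.4% of all genes, became 4 (6.92% of all genes) when scaled to the 75th percentile of the probes detected on all arrays, 4 (10.4%) under quantile normalization, 4 (6.23%) without a filter, 24 (14.4%) with normexp, 1 (3.29%) with the slide row as a block, and 8 (1631 of 14135 genes) with the replicate block, which gave 1 lower (7.63%). The replicate block changed no other call among the members, and left 0 of the 11 called genes of the whole table. Leaving out arrays gave 1 to 20 higher and 0 to 3 lower at that p, and 22 to 68 higher and 0 to 4 lower members without overlap of the groups. The lowest count, 1 (5.79% of all genes), was without young replicate 3, with 2 (5.37%) without young replicate 2, 4 (9.11%) without aged replicate 3, 5 (14.2%) without aged replicate 1 and 8 (7.96%) without aged replicate 2, and the highest was without young replicate 1 (1692 of 14135 genes). For members without overlap, 65 were higher without young replicate 1 (32.9% of all genes), 68 without replicate 1 of both groups (46.7%) and 38 without aged replicate 2 (25.1%). Quantile normalization and scaling to detected probes each gave 1 lower member without overlap (8.51% and 11.3% of all genes).

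Signs turned for 7 named genes with small differences or arrays far apart. Scaled to detected probes, Cox7b and Ndufa4 were at -0.01, and under quantile normalization at -0.00 and -0.02. Cox4i2 was at -0.16 with array weights, -0.08 with gene-by-gene weights, -0.16 without aged replicate 1 and -0.12 without replicate 1 of both groups. Cox6a1 was at -0.03 and -0.00 with these weights and -0.05 without aged replicate 3. Cox8b was at 0.06 with normexp, 0.04 with the slide row as a block, 0.11 without aged replicate 2 and 0.28 without aged replicate 3. Sdhb was at 0.11 as the mean of its probes, 0.04 without aged replicate 2 and 0.05 without young replicate 1. Ndufa4 was at -0.03 and -0.06 without aged replicates 2 and 3, and Ndufs1 at 0.02 without replicate 1 of both groups. With 1 array left out, the opposite ends were -0.18 for Sdhb, -1.29 for Cox8b and 0.32 for Ndufa4, each without aged replicate 1, and 0.43 for Cox4i2 and 0.19 for Cox6a1 without aged replicate 2. Direction and side of the threshold held in 620 other comparisons of a named gene with an alternative, and in 24 the gene passed the threshold, all with array weights. Cox6a2 and Cox8b lay nearest to background among the tested members.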
